A study of Mus musculus with 80 samples.

Results

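The lungs of CD-1 and C57Bl/6 wild-type (WT) mice were compared in the absence of styrene, the solvent whose inhalation the series examines. The comparison took the 5 CD-1 arrays and the 5 WT arrays labelled with a dose of 0 ppm, which is 10 of the 80 arrays of the series. CD-1 is an outbred stock, in which littermates and cage mates differ in genotype, and C57Bl/6 is an inbred strain. All mice were adult males from the same supplier, were housed on a day cycle of equal light and dark, breathed air alone for a single session of 6 h, and had their whole lungs removed the next morning. The titles write C57Bl/6 where the sample type field of the same arrays writes C67Bl/6, and the titles were followed. The other arrays were CD-1 and WT lungs after 10, 40 or 120 ppm styrene, and lungs of a CYP2F2 knockout (KO) and a CYP2F1 humanized line (TG) at the same 4 doses, in 16 groups of 5 labelled biological replicates. KO and TG were labelled as C57Bl/6 lines too, and their values are given only side by side. Of 17097 genes with a probe set of their own, 10606 were above the array background and were tested.

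Inbred mouse strains carry 1 fixed allele at each locus, whereas outbred stocks carry several, so a gene can differ between the stocks by a steady amount or only in those animals that hold a given allele. Genes of the immune system, such as the class II major histocompatibility complex, the Ifi200 family of interferon-inducible DNA sensors and the Trim family of antiviral ubiquitin ligases, are known for large differences among mouse strains. A short array probe can also fail to bind where a strain has a variant in the probed stretch, which lowers the signal with no change in the transcript.

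Levels were log2 signals made equal in distribution across all 80 arrays (quantile normalization), so a difference of 1 is a 2-fold change. The median of all values, 4.28, served as the background level, and the 75th percentile, 6.80, as the limit of a clearly present signal. The array medians of the deposited values averaged 4.27 over the CD-1 arrays, 4.57 over WT, 4.16 over KO and 4.10 over TG, so the strains differed in overall scale before normalization. Whether that step came from the lungs or from the arrays cannot be told apart. Markers of lung cells were high in every air array. The mean level of the alveolar type 1 list was 11.1 to 11.3 in CD-1 and 11.2 to 11.3 in WT, that of the alveolar type 2 list 11.4 to 11.7 in CD-1 and 11.6 to 11.7 in WT, and that of the club cell list 10.6 to 10.8 in each strain. The array of CD-1 replicate 4 and that of WT replicate 1 stood apart. Squamous epithelium markers averaged 7.19 and 8.22 on them, against at most 3.20 on the other CD-1 arrays and at most 3.43 on the other WT arrays. Skeletal muscle markers averaged 8.66 and 5.89, against at most 3.80 and 3.97 elsewhere. Counts without this pair of arrays, an alternative chosen after seeing the data, stand beside some of the results they change. Further changed list counts stand in the section on processing.

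In air, 3511 of the 10606 tested genes (33.1%) differed between CD-1 and WT by limma at an adjusted p under 0.05. Of all tested genes, 1941 (18.3%) were higher and 1570 (14.8%) were lower in CD-1. Most of these differences were small, with a median size of 0.39 log2 units among the called genes. A difference of at least 1.5-fold was called for 939 genes (8.85%), of at least 2-fold for 308 (2.9%) and of at least 4-fold for 59 (0.556%). The balance of directions depended on the scaling. After quantile normalization 55.3% of calls were higher in CD-1. The share was 68.8% after each array was shifted to a common median over all probe sets (median scaling), and 8.54% on the deposited values. The median difference over all genes was 0.02, 0.09 and -0.21 under these scalings. On separate probe sets in place of genes, 5504 of 16607 passed, also 33.1%.

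**Figure D1:**
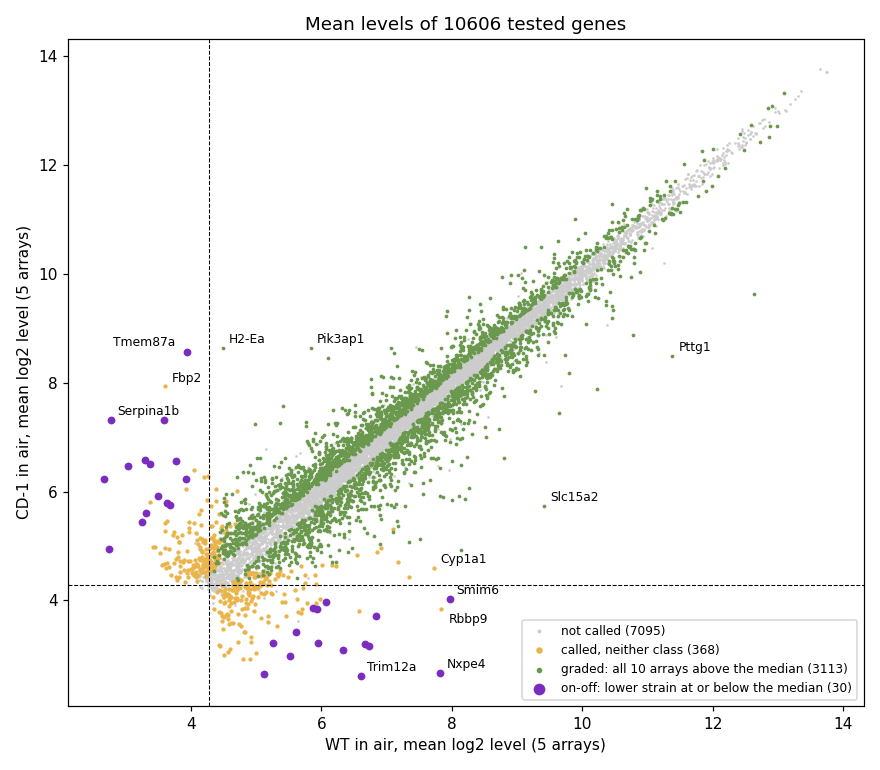
Mean log2 level in CD-1 (vertical axis) against WT (horizontal axis) in air, 5 arrays each, for the 10606 tested genes. Dashed lines mark the background level of 4.28. The 30 on-off genes lie in the corners where 1 strain is at background, and the 3113 graded genes lie along the diagonal in the quadrant above both lines.

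The called genes were then divided by the shape of the difference. A gene was all-or-none when the strains differed by at least 2 log2 units, every array of the lower strain was at or below 4.28 and every array of the higher strain was above 6.80. Only 3 genes met all of these terms, Tmem87a, Nxpe4 and Smim6. Dropping the upper limit, a step chosen after the values were seen, gave 30 on-off genes, 15 higher and 15 lower in CD-1, with a median fitted size of 2.75. Because the lower strain was not above background in these genes, fitted on-off differences are not exact folds. Set against the background level, the higher strain was at least 1.58-fold to 19.6-fold higher, with a median of 3.87-fold. A gene was graded when all 10 arrays were above 4.28, which held for 3113 called genes, 1740 higher and 1373 lower in CD-1, with a median size of 0.37. Among them 673 differed at least 1.5-fold (311 higher, 362 lower), 173 at least 2-fold (80 higher, 93 lower) and 18 at least 4-fold (5 higher, 13 lower). The other 368 called genes had some arrays on either side of the background. At the edge of the on-off limit of 2 log2 units, Micu3 at -2.00, Gal at -2.04 and Lrmda at 2.08 lay just inside, and Ppp1r3e at -1.98, Uchl1 at -1.97 and Epg5 at -1.96 just outside.

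Tmem87a, on chromosome 2, encodes a membrane protein of the Golgi. It read 8.38, 8.60, 8.49, 8.71 and 8.67 in CD-1 replicates 1 to 5, and 3.83, 3.98, 3.92, 4.03 and 3.91 in WT replicates 1 to 5. Every CD-1 array was far above background and every WT array below it, and Tmem87a was at least 19.6-fold higher in CD-1 (fitted difference 4.64 ± 0.07 SE, adjusted p = 2.62e-12 by limma). Nxpe4, on chromosome 9, ran the other way, at 2.50, 2.70, 2.63, 2.84 and 2.70 in CD-1 and 7.74, 7.82, 7.74, 7.93 and 7.89 in WT. It was at least 11.7-fold lower in CD-1 (fitted difference -5.15, adjusted p = 1.8e-12). Smim6, a small membrane protein gene on chromosome 11, read 4.02, 3.87, 3.90, 4.22 and 4.17 in CD-1 and 7.98, 7.98, 8.03, 8.19 and 7.67 in WT, at least 12.9-fold lower in CD-1 (fitted difference -3.93 ± 0.10, adjusted p = 3.91e-10). Each of these 3 genes was read by 1 probe set.

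The Ifi200 family, a cluster of DNA sensor genes on chromosome 1, split in direction. Ifi202b was at 7.57, 5.72, 5.21, 7.29 and 6.57 in CD-1 and at 3.05, 3.13, 3.19, 2.82 and 2.96 in WT. All WT arrays lay at background and the CD-1 arrays spread over more than 2 log2 units above it (3.44 ± 0.38, adjusted p = 5.64e-05). Ifi213 was at 3.05, 3.12, 3.52, 2.97 and 3.11 in CD-1 and at 6.66, 6.68, 6.70, 6.82 and 6.76 in WT (-3.57, adjusted p = 4.3e-10). Its neighbour Ifi209 was at 3.37, 2.96, 3.08, 3.36 and 3.22 in CD-1 and at 6.64, 6.52, 6.80, 6.86 and 6.50 in WT (-3.47, adjusted p = 8.78e-10). On the probe sets used, Ifi202b was thus at background in WT, and Ifi213 and Ifi209 in CD-1. A second Ifi209 probe set did not read an on-off difference. It averaged 4.46 in CD-1, above background, and 5.19 in WT (-0.73, adjusted p = 0.0247 by limma). Ifi203 was graded and higher in CD-1 by 0.96, and Ifi205 was lower by 0.74. All 5 tested members of the family passed, 2 higher and 3 lower, and the strains did not overlap in any of them. Over all tested genes 23.4% did not overlap.

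Trim12a, an antiviral ubiquitin ligase gene on chromosome 7, was at background in all CD-1 arrays (2.71, 2.55, 2.63, 2.61 and 2.61) and at 6.62, 6.74, 6.52, 6.54 and 6.59 in WT, a difference of -3.98 with adjusted p = 1.8e-12. Trim30d, of the same family, fell on either side of background in CD-1 (5.22, 4.12, 3.16, 3.05 and 3.50) and was at 6.49 to 6.67 in WT (-2.77, adjusted p = 0.000115). Trim34a was graded, with 5.83, 5.45, 4.45, 4.35 and 5.26 in CD-1 and 7.30 to 7.40 in WT (-2.28, adjusted p = 4.6e-05). These 3 Trim genes were lower in CD-1, with a wider range among the CD-1 arrays for Trim30d and Trim34a than for Trim12a. The family did not differ uniformly, since Trim30a, the neighbour of Trim30d, stood at -1.17 and Trim12c at 0.15.

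Serpina1b, a gene of the alpha-1-antitrypsin family that inhibits neutrophil elastase, read 7.48, 6.65, 7.41, 7.42 and 7.62 in CD-1 and 2.81, 2.64, 2.89, 2.72 and 2.80 in WT (4.54 ± 0.15, adjusted p = 4.04e-09). The Serpina1 genes are near-identical copies, so signal from related copies cannot be told apart. Wif1, a secreted inhibitor of Wnt signalling, read 8.35, 7.27, 9.06, 4.40 and 7.48 in CD-1 and 3.56, 3.85, 3.63, 3.48 and 3.42 in WT (3.72 ± 0.67, adjusted p = 0.00159). CD-1 replicate 4 was barely above background for Wif1 while the other CD-1 arrays were at 7.27 or above. Ctse, the aspartic protease cathepsin E, read 6.73, 6.44, 7.24, 7.52 and 4.61 in CD-1 and 3.18 to 3.48 in WT (3.15, adjusted p = 0.000261). Among the further on-off genes higher in CD-1 were H2bc18 and H4c9, which encode histones H2B and H4, and Slc4a1, the anion exchanger of red blood cells (2.17). Gchfr, the feedback regulator of GTP cyclohydrolase, Hsd3b2, a steroid dehydrogenase, Tshb, a subunit of thyrotropin, Exd1 and Abhd1 also belonged here.

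Among the further genes at background in CD-1, Prmt8, an arginine methyltransferase known from brain, differed by -3.12 and Ankrd63 by -3.25. Gal, the neuropeptide galanin, Micu3, a regulator of mitochondrial calcium uptake, Hjurp, a chaperone of centromeric histone, Mtmr7, a lipid phosphatase, Sowahb and Cd200r4, a receptor of the CD200 receptor family, differed by -2.47 to -2.00. The uncharacterized genes 2610035D17Rik and C920006O11Rik differed by -2.54 and -2.72. In all 30 on-off genes the CD-1 and WT arrays were fully separate, which the class required.

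**Figure D2:**
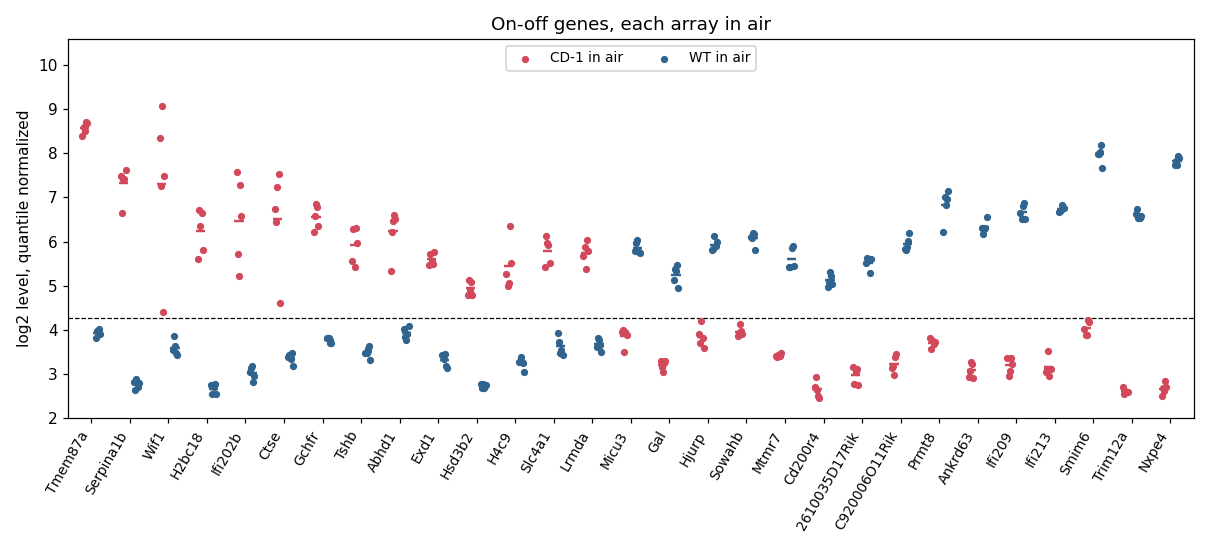
Log2 level of 29 of the 30 on-off genes in each CD-1 array (red, left of each pair) and each WT array (blue) in air, with short bars for means of 5 arrays and a dashed line at the background level of 4.28. Genes run by difference, from Tmem87a at 4.64 to Nxpe4 at -5.15. Wif1 spreads from 4.40 to 9.06 in CD-1.

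A further 11 genes differed at least 4-fold without being on-off or graded, 6 higher and 5 lower in CD-1. They were named after their values were seen. Fbp2 and Fbp1, adjacent genes on chromosome 13 for the muscle and liver forms of the gluconeogenic enzyme fructose bisphosphatase, were both higher in CD-1. Fbp2 read 7.98, 8.24, 7.20, 7.64 and 8.63 in CD-1 and 4.43, 3.33, 3.25, 3.63 and 3.41 in WT (4.33 ± 0.28, adjusted p = 7.54e-07). Fbp1 read 6.14, 5.95, 5.25, 5.59 and 6.08 in CD-1 and 3.11, 2.95, 3.03, 3.13 and 4.66 in WT (2.42 ± 0.31, adjusted p = 0.000153). For each gene a single WT array, replicate 1 for Fbp2 and replicate 5 for Fbp1, was above background. Rbbp9, a serine hydrolase gene, missed the on-off class by 1 array, with 3.58, 3.91, 3.67, 3.75 and 4.31 in CD-1 and 7.77 to 7.88 in WT (-3.99, adjusted p = 8.91e-10). The other members were Ccr6, the receptor of the chemokine CCL20 (2.36), Ncr1, an activating receptor of natural killer cells (2.14), Pdlim4 (2.07), Fam205a1 (2.02), the transcription factor gene Sox11 (-2.47), Trim30d, 2610507I01Rik and Cyp1a1.

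Cyp1a1 encodes a cytochrome P450 that oxidizes polycyclic aromatic compounds and is induced by the aryl hydrocarbon receptor (AHR). The 200 bases before its start in the RefSeq promoter table (build GRCm38.p6, chr9:57697413-57697612, plus strand) are shown because its level in air differed by strain and changed with dose. Capitals mark the core of the AHR response element, GCGTG, searched on both strands, which lies 54 bases before the start.
Cyp1a1: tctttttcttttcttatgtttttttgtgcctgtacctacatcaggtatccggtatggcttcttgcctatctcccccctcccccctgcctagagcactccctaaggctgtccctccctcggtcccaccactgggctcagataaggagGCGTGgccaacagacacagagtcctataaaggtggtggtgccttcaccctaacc
The same letters occur within 250 bases before the start in 28.2% of 32851 promoters and in 9 of 49 P450 promoters of the list used here, so a match carries no statement on binding.

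In air Cyp1a1 read 4.94, 5.86, 4.41, 3.62 and 4.16 in CD-1 and 7.42, 8.10, 8.08, 7.20 and 7.83 in WT. All WT arrays were above all CD-1 arrays (-3.13 ± 0.36, 8.74-fold, adjusted p = 6.84e-05). Air levels were 6.17 to 7.07 in KO and 6.01 to 7.71 in TG, above every CD-1 array. The strain difference was smaller at 10 ppm (-2.10, adjusted p = 0.00926) and did not pass at 40 ppm (1.04, adjusted p = 0.131) or 120 ppm (0.66, adjusted p = 0.122). The interaction of strain with dose, tested as the response to 120 ppm in CD-1 minus that in WT, was 3.79 (adjusted p = 0.000242). Of the 16 tested P450 genes, Cyp1a1 included, 3 were higher and 5 lower in CD-1, beside the 33.1% called over all tested genes, and 0 were higher and 11 lower on the deposited values. Cyp4f18, a leukotriene hydroxylase, was lower by 1.11, Cyp4f13 by 0.78 and Cyp3a13, a xenobiotic oxidase, by 1.16 (adjusted p = 0.000815). The list median was -0.16 beside 0.02 over all tested genes. Cyp2f2, the club cell P450 that oxidizes styrene, averaged 12.99 ± 0.07 in CD-1 and 13.13 ± 0.04 in WT (SD, n = 5 each). Its difference of -0.14 ± 0.05 did not pass (adjusted p = 0.0612), was 0.09 after median scaling, and passed without CD-1 replicate 4 (adjusted p = 0.0226). Cyp2f2 air levels were 11.6 to 11.9 on the arrays labelled KO and 11.6 to 12.0 on those labelled TG, below the 13.1 to 13.2 of WT but far above background. The probe set thus still gave a high signal on arrays labelled as a knockout of this gene. Where its probes lie relative to the deletion was not examined, so the label is not checked by this value.

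Graded genes with the largest differences and no overlap were named in each direction. Among those higher in CD-1, Pik3ap1, an adaptor between B cell receptors and PI3 kinase, read 8.71, 8.75, 8.57, 8.47 and 8.69 in CD-1 and 5.74, 5.83, 5.86, 5.93 and 5.83 in WT (2.80 ± 0.07, adjusted p = 1.97e-10). Jchain, which links immunoglobulins into polymers, read 8.45, 7.09, 7.68, 9.03 and 10.05 in CD-1 and 6.19, 5.61, 6.37, 6.11 and 6.19 in WT (2.37, adjusted p = 0.00217). Saa3, an acute phase apolipoprotein, read 6.10, 6.35, 5.93, 6.79 and 6.59 in CD-1 and 5.34, 5.07, 4.39, 4.53 and 4.64 in WT (1.56, adjusted p = 0.000181). The strains did not overlap in any of these genes, as their choice required (68.3% of called genes did not overlap), and the CD-1 arrays were nearly level for Pik3ap1 and wide for Jchain. Rbp7, a retinol-binding protein of endothelium and fat, was higher by 2.27, Ocel1 by 2.15, and Procr, the endothelial receptor of protein C, by 1.90. Clmp, a junction adhesion molecule, was higher by 1.61, Ncf4, a subunit of the phagocyte NADPH oxidase, by 1.59, Atp10d, a lipid flippase, by 1.56, Pira1, an immunoglobulin-like receptor, by 1.56 and Cd3e, a chain of the T cell receptor complex, by 1.55.

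Of the graded genes lower in CD-1, Slc15a2, a peptide transporter, read 5.36, 4.93, 7.84, 5.14 and 5.40 in CD-1 and 9.25, 9.73, 9.90, 8.97 and 9.21 in WT (-3.68 ± 0.47, adjusted p = 0.000161). Trim16 read 4.40, 4.54, 7.11, 4.30 and 4.32 in CD-1 and 8.27, 8.22, 8.16, 8.13 and 7.93 in WT (-3.21, adjusted p = 0.000353). Efhd2, a calcium-binding protein of leukocytes, read 7.46, 7.49, 9.49, 7.51 and 7.45 in CD-1 and 10.13, 10.23, 10.16, 10.34 and 10.31 in WT (-2.35, adjusted p = 0.000372). In all 3 genes CD-1 replicate 3 lay about 2 log2 units above the other CD-1 arrays and still below WT. Pttg1, the mitotic inhibitor securin, read 8.77, 8.30, 8.10, 8.89 and 8.40 in CD-1 and 11.37, 11.32, 11.38, 11.46 and 11.39 in WT (-2.89, adjusted p = 4.13e-08). Its air levels were 7.39 to 7.63 in KO and 7.83 to 11.44 in TG, so WT alone was uniformly high. Adh7, an alcohol dehydrogenase of upper epithelia, read 4.58, 4.50, 4.45, 6.13 and 6.00 in CD-1 and 8.47, 7.88, 7.68, 6.54 and 7.00 in WT (-2.38, adjusted p = 0.00161), with a small gap between the highest CD-1 and the lowest WT array. Upk1b, a uroplakin, and Slc6a2, the noradrenaline transporter, were lower by 2.21 each, Rpgrip1, a protein of the cilium base, by 2.19, Arap3, a GTPase-activating protein, by 2.18, and Pcdh18, a protocadherin, by 2.15. The pseudogene Pisd-ps3 was lower by 2.33, and as a copy of Pisd it can share signal with it.

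**Figure D3:**
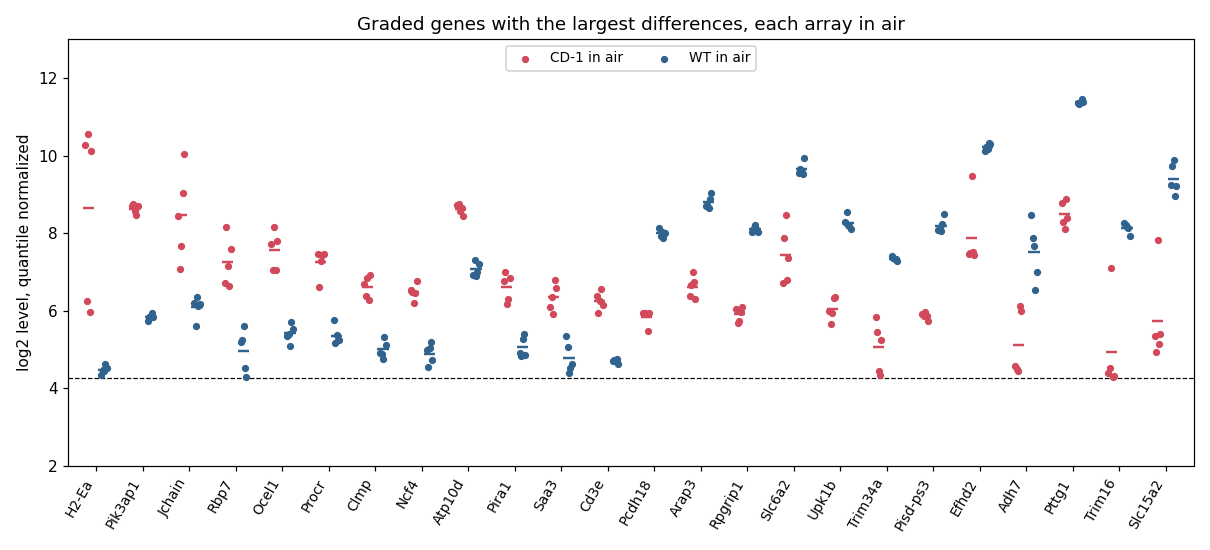
Log2 level of the 24 graded genes with the largest differences and no overlap between strains in air, 12 in each direction, for each CD-1 array (red, left of each pair) and each WT array (blue), with bars for means of 5 arrays and a dashed line at 4.28. Slc15a2, Trim16 and Efhd2 each have 1 CD-1 array, replicate 3, about 2 units above the others.

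Other probe sets of the same gene were examined, to see whether they read the same difference. Each had to be above background in every array of the strain that was higher on the first probe set. The 1134 called genes with such probe sets had 1679 of them, of which 710 (42.3%) passed in the same direction, 92 passed in the opposite direction and 877 did not pass. For graded genes of at least 2-fold, 73 of 93 other probe sets (78.5%) passed in the same direction, 7 in the opposite direction and 13 not at all. A probe set at background in the other strain could enter only by reading the same direction. These shares thus lean toward the same direction and are not independent second measures. Only 5 on-off genes had another probe set above background and 0 had one above the 75th percentile. Apart from that of Ifi209 (means of 4.46 in CD-1 and 5.19 in WT), these probe sets met the first limit through the higher strain, so their direction gives no second measure. Of the 59 genes that differed 4-fold, 34 were read by a single probe set and 20 had another above background, so for 34 of them the arrays hold no second reading.

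The readings conflicted for 3 named graded genes. The second probe set of Pik3ap1 was lower in CD-1 by 0.55 (5.18 in CD-1, 5.73 in WT, adjusted p = 0.0272), where the first was higher by 2.80. A second Slc15a2 probe set averaged 8.40 in CD-1 and 7.99 in WT (0.41, adjusted p = 0.0587), where the first was lower by 3.68. A further Slc15a2 probe set was in the same direction as the first. It averaged 6.28 in CD-1 and 8.99 in WT (-2.71, adjusted p = 0.000161 by limma). A second Arap3 probe set was higher in CD-1 by 0.30 (adjusted p = 0.029), where the first was lower by 2.18. Second readings were in the same direction and smaller for Trim16 (-1.13), Efhd2 (-0.53) and Pcdh18 (-0.64), and larger for Pisd-ps3 (-3.99) and H2-Ea (5.21). The lower strain averaged below background on those of Pisd-ps3 (3.00 in CD-1) and H2-Ea (2.89 in WT), which entered through the higher strain. Among the 4-fold genes in neither class, Trim30d read -1.28 and -1.44 on other probe sets, against -2.77 on the first. Those of Sox11 read -2.98 to -0.65, against -2.47 on the first, with CD-1 averages below background. Whether a variant under the probes or a transcript form lies behind these conflicts was not tested, as neither probe sequences nor genotypes were used here.

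The same strain contrast in exposed lungs rests on other animals and arrays. Between CD-1 and WT, 37.4% of tested genes passed at 10 ppm, 38.1% at 40 ppm and 42.5% at 120 ppm. Of the genes called in air and tested again, 64.2% passed in the same direction at 10 ppm, 64.3% at 40 ppm and 64.1% at 120 ppm, and 0.519%, 0.405% and 1.42% passed in the opposite direction. Air differences of at least 1.5-fold passed in the same direction in 86%, 85.3% and 82.9%. On-off genes passed in 28 of 28, 28 of 28 and 27 of 27 cases. For 27 of the 30, the 15 exposed CD-1 arrays and the 15 exposed WT arrays did not overlap, against 7.99% of all tested genes, and the exceptions included Abhd1 and Gal. Tmem87a stayed at 8.36 to 8.67 in exposed CD-1 lungs and at 3.73 to 4.03 in exposed WT lungs. Nxpe4 stayed at 2.53 to 2.89 in CD-1 and 7.42 to 8.02 in WT.

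Not every air difference was stable with dose. The interaction of strain with 120 ppm passed for 790 of 10921 genes (7.23%). It passed for 290 of the 3511 genes called in air, a share close to that over all tested genes. The air arrays that gave these calls also enter the interaction, so genes with an extreme air difference tend toward an interaction of opposite sign. Saa3, higher in CD-1 in air, was lower in CD-1 at 10 ppm (-2.03, adjusted p = 0.00321), at 40 ppm (-1.63, adjusted p = 0.0374) and at 120 ppm (-1.58, adjusted p = 0.00219), with an interaction of -3.14. Among the named genes called in air, the interaction was -3.15 for Rsad2 (adjusted p = 0.000125), -1.91 for Eln (adjusted p = 0.000123) and 2.04 for Hlf (adjusted p = 6.41e-05). Exposed levels of Saa3 were 5.45 to 9.02 in CD-1 and 7.36 to 9.61 in WT. Ccdc153, a gene of motile cilia, was lower in CD-1 by 0.98 in air and by 0.61 at 10 ppm (adjusted p = 0.0093), and did not pass at 40 ppm (-0.12) or 120 ppm (-0.25). Its interaction did not pass (0.74, adjusted p = 0.102).

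The on-off genes were set beside KO and TG in air, the other groups labelled C57Bl/6. In 28 of the 30 all 5 KO arrays were on the same side of background as WT, in 27 all 5 TG arrays were, and in 27 both were. Tmem87a was at 3.51 to 3.92 in KO and 3.83 to 4.02 in TG, as low as in WT. Nxpe4 was at 7.86 to 8.24 in KO and at or above 7.40 in TG, on the side of WT. Lrmda, a gene linked to melanocyte differentiation, was the clear exception, at 5.68, 5.89, 5.37, 6.03 and 5.78 in CD-1 and 3.61, 3.83, 3.78, 3.65 and 3.50 in WT. Lrmda was at 5.81 to 6.20 in KO and 5.82 to 6.08 in TG, so WT alone was low. Abhd1 and Cd200r4 had KO or TG arrays on either side of background.

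Neighbouring tested genes on a chromosome sometimes differed together. A tested gene had a neighbour that was called at least 2-fold in 5.64% of cases, against 11.8% for genes that were themselves called 2-fold, 19% for those called 4-fold and 16.7% for on-off genes (5 of 30). The pairs Ifi213 with Ifi209, Fbp2 with Fbp1, and Adh7 with Adh1 (-1.13), which encode related enzymes or sensors, differed in the same direction. On chromosome 2, Bpifa1, Bpifb1 (-1.90) and Bpifb5 (-1.15), which encode secreted airway defence proteins, and Cdk5rap1 (-1.69) between them were all lower in CD-1. Serpina1b with Serpina3n (-1.09), Ctse with Rab7b (-1.13) and Ankrd63 with Pak6 (1.83) differed in opposite directions.

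Gene lists for cell types were described by counts of calls and by the median difference, beside the median of 0.02 over all tested genes and the 33.1% of them that were called (18.3% higher, 14.8% lower). In whole lung RNA, fewer cells of a type and less RNA per cell cannot be told apart. Of 10 tested T and NK cell genes 6 rose and 0 fell (median 0.87), led by Cd3e (1.55), Ncr1 (2.14), and the T cell receptor chains Cd3d (0.89) and Cd3g (0.76). Without CD-1 replicate 4 and WT replicate 1 the count was 4, with a median of 0.59, and CD-1 replicate 4 had the highest list mean of all 10 arrays, 6.63 against at most 5.91 in the other CD-1 arrays. Of 6 neutrophil genes 4 rose and 0 fell (median 1.02), namely the granule gene Ngp (1.57), the cytokine Il1b (1.17) and the calcium-binding proteins S100a9 (1.07) and S100a8 (0.97). Il1b read 6.63, 6.41, 6.43, 6.51 and 6.75 in CD-1 and 5.63, 5.01, 5.45, 5.78 and 5.00 in WT, with no overlap, whereas S100a8 and S100a9 overlapped. The granule gene Ltf stood at -1.07 and did not pass (adjusted p = 0.210).

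Of 11 macrophage genes 6 rose and 0 fell (median 0.31), and 8 of the 11 differences were above 0. Without CD-1 replicate 4 and WT replicate 1, 6 rose and 1 fell, with a median of 0.32. Fabp1, a fatty acid carrier, rose by 1.04, the scavenger receptor Marco by 0.77, the integrin Itgax by 0.48 and the growth factor receptor Csf1r by 0.31. On the deposited values 2 macrophage genes rose and 2 fell, with a median of 0.06 beside the shift of -0.21 over all genes. Of 6 erythroid genes 3 rose and 0 fell (median 0.64), namely Slc4a1, the heme synthesis enzyme Alas2 (1.32) and Fech (1.07). The globin gene Hba-a1 read 13.65 to 13.79 in CD-1 and 13.65 on every WT array, near the top of the scale, where quantile normalization gives equal values, so no difference was read from it. The erythroid list mean was 9.05 to 9.30 in CD-1 and 8.40 to 8.64 in WT, without overlap. Of 5 B cell genes 1 rose, Cd22 (0.66), and of 3 thymocyte genes the chromatin organizer Satb1 rose (1.14) and Cd1d1 fell.

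The ciliated cell list was the most uniform of the epithelial lists. Of 11 tested genes 10 were lower in CD-1 and 0 higher, with a median of -0.50. Ccdc153 read 9.33, 8.85, 8.93, 9.27 and 9.03 in CD-1 and 9.84, 10.28, 10.26, 9.98 and 9.96 in WT (-0.98, adjusted p = 9.13e-05). Dnah5, a dynein motor of the cilium (-0.99), Tekt1, a protein of ciliary microtubules (-0.84), and Ccdc39, an assembly factor of the axoneme (-0.71), also fell. The list mean was 7.94 to 8.33 in CD-1 and 8.52 to 8.89 in WT, with no overlap between the strains. After median scaling 6 members fell (median -0.41), on the deposited values 10 (median -0.72), and 9 without CD-1 replicate 4 and WT replicate 1. The club cell list, by contrast, held 1 call of 11, the esterase Pon1 (0.36), and its median of -0.06 turned to 0.14 after median scaling. Its counts were 5 higher and 0 lower after median scaling, 0 higher and 4 lower on the deposited values, and 1 higher and 2 lower without that pair of arrays.

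For the remaining resident cells few genes passed. None of 10 alveolar type 1 genes was called, against 4 higher after median scaling and 5 lower on the deposited values, and their median of -0.04 turned to 0.12. Of 10 alveolar type 2 genes only the lysozyme gene Lyz2 was called (0.22), and the list median of -0.07 turned to 0.12 after median scaling, with 4 higher and 0 lower. On the deposited values 1 was higher and 7 lower. Of 12 endothelial genes 2 rose, the adhesion molecule Cdh5 (0.47) and the VEGF receptor Kdr (0.27), against 5 after median scaling, with a median of 0.16 that was -0.03 on the deposited values. Kdr did not pass in 9 of the 10 fits that left out 1 array (adjusted p up to 0.104). Of 12 fibroblast and smooth muscle genes 4 rose, namely the collagen gene Col3a1 (0.42), elastin (Eln, 0.91), Pdgfra (0.42) and fibronectin (Fn1, 0.30), with a median of 0.13 that was -0.14 on the deposited values. None of 8 cardiac muscle, 5 adipose tissue, 2 skeletal muscle and 1 squamous epithelium genes was called, with medians of 0.19, -0.82, -0.07 and -2.01. Adipose, skeletal and squamous levels ranged widely between arrays of 1 strain. Without CD-1 replicate 4 and WT replicate 1, 1 adipose gene, Retn, and the squamous gene Sprr1a were called lower, and the cardiac median was -0.12.

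**Figure D4:**
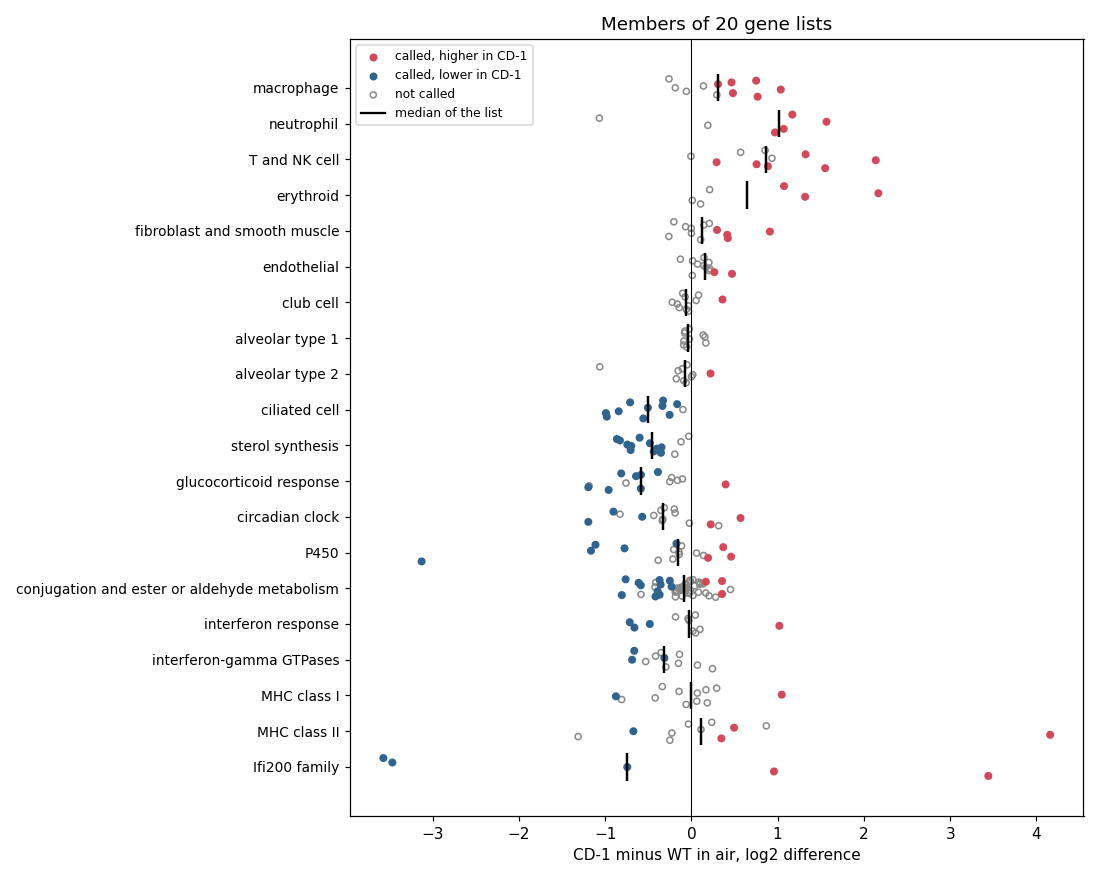
Difference between CD-1 and WT in air (log2, horizontal axis) for each tested member of 20 gene lists. Filled points passed (red higher, blue lower in CD-1), open points did not, and the black bar is the list median. The neutrophil, T and NK cell and erythroid medians lie between 0.64 and 1.02, and the ciliated, sterol and glucocorticoid medians between -0.59 and -0.46.

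Genes of sterol synthesis were lower in CD-1 in 11 of 14 cases and higher in 0, with a median of -0.46. Over all tested genes 14.8% were called lower and 18.3% higher. Hsd17b7, Sc5d, Fdps and Lss, enzymes on the way to cholesterol, were lower by 0.83, 0.86, 0.70 and 0.70 (adjusted p = 1.23e-05 for Hsd17b7). The list mean was 6.73 to 6.89 in CD-1 and 7.04 to 7.47 in WT, with no overlap. The highest WT value, 7.47, was that of WT replicate 1, and without it and CD-1 replicate 4 the count was 9. The median was -0.37 after median scaling and -0.68 on the deposited values.

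Targets of the glucocorticoid receptor were lower in 7 of 14 cases and higher in 1, with a median of -0.59. Over all tested genes 14.8% were called lower and 18.3% higher. Per1, a clock gene that glucocorticoids induce, read 7.06, 7.01, 6.94, 7.16 and 6.17 in CD-1 and 7.71, 8.13, 8.20, 7.98 and 8.28 in WT (-1.19, adjusted p = 0.000435). Errfi1, an inhibitor of epidermal growth factor receptors, was lower by 0.81 and the transcription factor Cebpd by 0.64, while the kinase Sgk1 was higher by 0.40. The count of lower genes was 10 without CD-1 replicate 4 and WT replicate 1. Circadian clock genes passed in 3 cases lower (Hlf at -0.90, Per1, and Cry2 at -0.57) and 2 higher (Cry1 at 0.57 included) of 15. Their median was -0.33. The share called was close to the 33.1% over all tested genes. On the deposited values 0 clock genes were higher and 10 lower. The hour at which each lung was taken was not used here. Immediate early genes, which respond within minutes to a stimulus, passed in 3 cases higher and 2 lower of 13 (median -0.01). This too stands beside the 33.1% called over all tested genes. None of 11 heat shock genes passed (median -0.11). Of 18 replication and mitosis genes the licensing factor Cdt1 alone passed (0.46, list median -0.05). On the deposited values Cdt1 did not pass, and 0 of the 18 were higher and 12 lower.

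Enzymes of conjugation and of ester or aldehyde metabolism passed in 3 cases higher and 11 lower of 52, beside the 33.1% called over all tested genes, with a median of -0.09. The carbonyl reductase Cbr1 averaged 8.34 ± 0.07 in CD-1 and 8.93 ± 0.07 in WT (-0.59, adjusted p = 2.15e-05). The glutathione transferases Gstm6 and Gstm1 were lower by 0.81 and 0.42 and the hydroxysteroid dehydrogenase Akr1c14 by 0.76. After median scaling 8 members were higher and 9 lower, and on the deposited values 0 were higher and 34 lower, beside the shift of all genes.

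Of 11 interferon response genes 1 was higher and 3 were lower (median -0.03), close to the 33.1% called over all tested genes, and on the deposited values 1 was higher and 7 were lower. The antiviral enzyme Rsad2 was higher by 1.02, and the regulators Usp18 and Irf7 and the synthetase-like Oasl2 were lower by 0.72, 0.48 and 0.66. Irf7 and Oasl2 did not pass without CD-1 replicate 4 and WT replicate 1. The GTPases induced by interferon gamma passed in 0 cases higher and 3 lower of 11 (median -0.31), namely Igtp (-0.69), Ifi47 (-0.66) and Irgm1 (-0.31), and in 7 lower without that pair of arrays. Irgm1 did not pass after median scaling, or in 6 of the 10 fits that left out 1 array (adjusted p up to 0.0920). Of 12 class I histocompatibility genes H2-T24 was higher (1.05) and H2-T23 lower (-0.88), with a median of 0.00. Of 6 tested genes of the natural killer receptor list, which also holds Clec2 genes, Clec2d was higher (0.96) and the receptor gene Klra9 lower (-1.42). The genes of this list and the class I genes are multigene families, whose probes can read related members. A list of 35 loci known to vary among strains, of which 20 were tested, held 5 higher and 5 lower genes, Pttg1, Trim12a, Trim34a and the endosomal adaptor Wdfy1 (-0.47) among the lower.

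The class II histocompatibility genes, which present antigen to helper T cells, differed within CD-1 as well as between strains. Mice of the H-2b haplotype, which C57Bl/6 carries, are known to lack H2-Ea through a promoter deletion. H2-Ea read 10.28, 6.26, 10.57, 5.98 and 10.13 in CD-1 and 4.34, 4.46, 4.46, 4.64 and 4.53 in WT. All CD-1 arrays lay above all WT arrays, and the CD-1 arrays formed a high set of 3 and a low set of 2 (4.16 ± 0.87, adjusted p = 0.00384). The WT arrays were just above the background level, so the rule placed H2-Ea among graded genes although a second probe set averaged 8.11 in CD-1 and 2.89 in WT. Its partner chain H2-Eb1 read 9.43, 5.51, 10.25, 9.62 and 10.53 in CD-1 and 10.19, 10.41, 10.42, 10.54 and 10.35 in WT, and did not pass (adjusted p = 0.213). The other called members of 11 were the peptide loading gene H2-DMb1 (-0.67), its inhibitor H2-Oa (0.49) and H2-Ab1 (0.35). Over all tested genes 33.1% were called. The list median was 0.11, and -0.14 on the deposited values. H2-Oa and H2-Ab1, at adjusted p = 0.0496 and 0.0499, did not pass without CD-1 replicate 4 and WT replicate 1.

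The bases before the start of H2-Eb1 (RefSeq, GRCm38.p6, chr17:34305667-34305866, plus strand) are shown because its CD-1 levels fell into separate sets. Capitals mark CTGATTGG, the inverted CCAAT letters of the Y box of class II promoters, 62 bases before the start.
H2-Eb1: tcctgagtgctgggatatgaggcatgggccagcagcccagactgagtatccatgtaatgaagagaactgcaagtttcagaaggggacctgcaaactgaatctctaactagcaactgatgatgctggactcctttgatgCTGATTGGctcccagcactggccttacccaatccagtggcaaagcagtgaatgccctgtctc
Searched on both strands, these letters occur within 250 bases before the start in 3.83% of 32851 promoters and in 4 of the 9 class II promoters in the table.

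Spread within a strain was then compared. The median standard deviation over 5 air arrays was 0.144 in CD-1 and 0.106 in WT, and 70.8% of tested genes had the higher one in CD-1. A gene was called wide in a strain when its standard deviation was at least 0.5 there and at least 3 times that of the other strain. In air 132 genes were wide in CD-1 and 7 in WT. At 10 ppm the counts were 88 in CD-1 and 19 in WT, at 40 ppm 150 and 36, and at 120 ppm 170 and 3, each with CD-1 ahead. Without CD-1 replicate 4 and WT replicate 1 the air counts were 111 in CD-1 and 8 in WT. Of the 132 genes, 34 were wide again at 10 ppm, 41 at 40 ppm and 38 at 120 ppm, and 16 were wide at all 4 doses. These 16 included H2-Ea, H2-Eb1, Ifi202b, Trim5, Trim30d, the glycolipid hydrolase gene Galc, the lipid phosphodiesterase gene Gdpd3, the chitinase-like gene Chil1 and Slc6a2.

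Over the 20 CD-1 arrays of all doses, levels of several wide genes fell into separate sets. H2-Ea was at or above 9.64 on 6 arrays and at or below 6.71 on 14. The same 6 arrays were the 6 highest for D17H6S56E-5, a chromosome 17 gene, at or above 7.19 there and at or below 6.22 elsewhere. H2-Eb1 was at or below 6.17 on 4 arrays and at or above 8.61 on 16, and on those 4 arrays H2-Ea was at 6.26 to 6.71. On the 6 arrays highest in H2-Ea, H2-Eb1 was at 8.61 to 10.53. Gdpd3 was at or above 8.89 on 7 arrays and at or below 5.46 on 13. Over all doses Gdpd3 also ranged widely in TG, from 5.54 to 9.60 (median 9.15, SD 1.67), but not in KO (4.49 to 5.29). In air it read 4.71, 9.60, 4.56, 5.46 and 9.59 in CD-1 and 5.81, 5.03, 5.19, 4.74 and 5.00 in WT, so it did not pass as a strain difference (adjusted p = 0.227). Nptx1, a neuronal pentraxin, was at or below 3.14 on 5 arrays and at or above 5.29 on 15. The low arrays were replicates 1, 3 and 4 in air and replicates 3 and 4 at 10 ppm. Its CD-1 standard deviation was 1.81 in air, 0.27 at 40 ppm and 0.32 at 120 ppm. The interaction of strain with 120 ppm did not pass for Nptx1 (2.47, adjusted p = 0.0557 by limma). Galc ranged more evenly, from 2.77 to 6.96.

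Bpifa1, a secreted protein of the upper airways, read 9.90, 6.24, 7.86, 11.12 and 13.00 in CD-1 and 12.68, 12.85, 13.11, 11.76 and 12.77 in WT. The strains overlapped, since CD-1 replicate 5 was above 4 of the 5 WT arrays (-3.01 ± 1.02, adjusted p = 0.0408). It did not pass without CD-1 replicate 4 and WT replicate 1, nor without CD-1 replicates 1, 2 or 3 or any single WT array (adjusted p up to 0.0900). Myl1, a myosin light chain of fast muscle, was wide in CD-1 through replicate 4 alone, at 9.43, with the other 19 CD-1 arrays at or below 4.80. Without that array Myl1 was called lower in CD-1 (adjusted p = 0.00666 by limma). WT replicate 1, also high in skeletal muscle markers, stayed in that fit at 6.98, against 4.24 to 5.35 on the other WT arrays. Without both arrays Myl1 no longer met the background limit for testing.

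**Figure D5:**
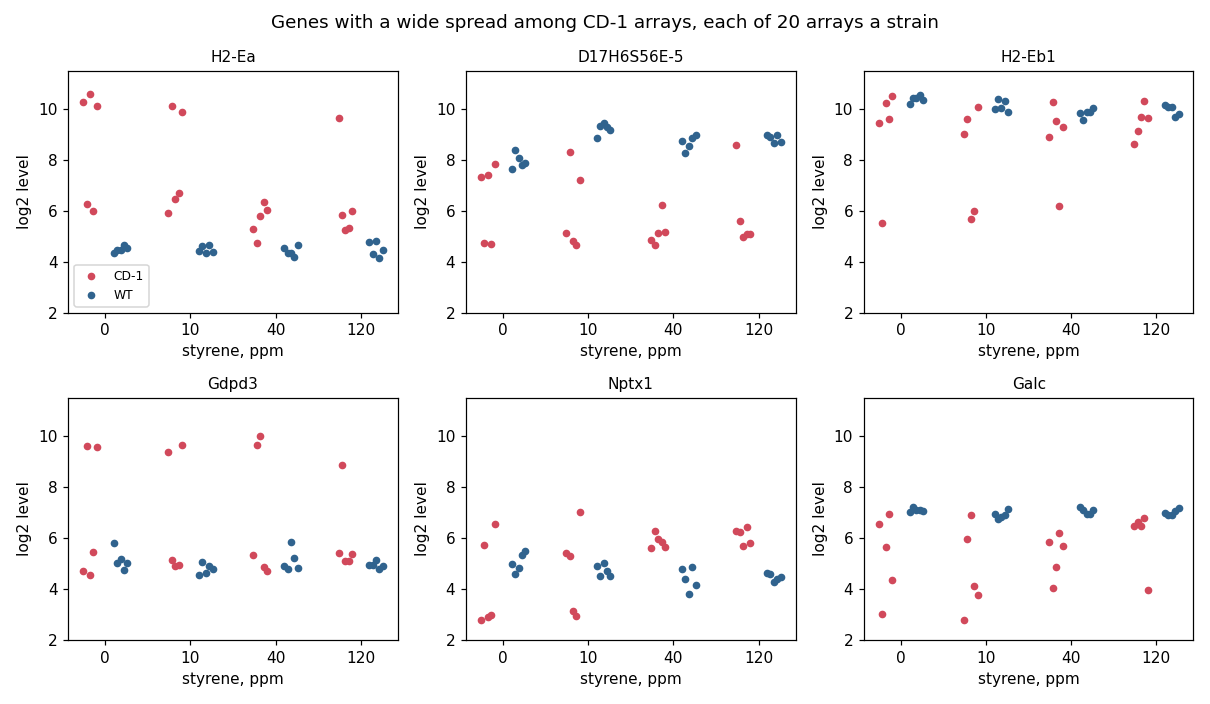
Log2 level of 6 genes with a wide spread among CD-1 arrays, at 0, 10, 40 and 120 ppm styrene, for each of 20 CD-1 arrays (red, left at each dose) and 20 WT arrays (blue). H2-Ea and Gdpd3 form separate high and low sets of CD-1 arrays at most doses, while the WT arrays of H2-Ea stay between 4.14 and 4.83.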

How the data were processed

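Per the labels, RNA of whole lungs was hybridized to Affymetrix mouse arrays, and the submitters' processing notes name RMA and Partek, with versions not given in the sources used here. The deposited values are log2 signals, from 1.88 to 13.9, for 45037 probe sets. Nothing used here states whether RMA took all arrays together or each strain apart. GEO's platform annotation gave 1 symbol to 28898 probe sets, several to 551 and none to 15588, and 28689 matched RefSeq GRCm38.p6.

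All 80 arrays were quantile normalized. The probe set with the highest mean stood for each gene, and genes above the median of all values in at least 5 of 10 arrays were tested with limma 3.58.1 (lmFit, eBayes) in R 4.3.3, with Benjamini-Hochberg adjustment at 0.05. Median scaling, no scaling, other filters, a replicate block and leaving out arrays were alternatives. No arrays were identical (0 pairs), and the array correlations within an air group were 0.986 to 0.996. Same-numbered arrays of the strains correlated at -0.21 to -0.02 in their deviations, so they were not treated as pairs. The scripts were tested on simulated data. The number of arrays limits the precision, and p-values measure the spread between labelled biological replicates.

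The members and the gene lists were chosen with earlier results of these data known. Named genes were Cyp2f2, all-or-none genes, the 12 largest graded differences in each direction without overlap, the 10 widest in CD-1, and up to 4 lowest-p members of each list. On-off genes, other 4-fold genes and neighbours were named after their values were seen, and 1 on-off gene is not reported here.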

Additional observations from a re-analysis of the deposited data

Results flagged for a closer look

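Of the 176 named genes, 27 differed between CD-1 and WT in their response to 120 ppm, by the interaction in limma (CD-1 response minus WT response), beside 7.23% of all tested genes. The air arrays by which many of them were chosen also enter this interaction. Among the largest were Cyp1a1 at 3.79 (adjusted p = 0.000242), Rsad2 at -3.15 (adjusted p = 0.000125), Saa3 at -3.14 (adjusted p = 0.00016), Hlf at 2.04 and Eln at -1.91. Positive values were also found for Fabp1 at 1.18, Ankrd63 at 1.11, Gal at 1.08, Pon1 at 0.76, Cry2 at 0.66, 2610035D17Rik at 0.64, Gabrp at 0.57, Cyp2f2 at 0.52 (adjusted p = 0.00797), Gstm1 at 0.51, Aldh1a7 at 0.51 and Wdfy1 at 0.29. Negative values were found for Procr at -1.23 (adjusted p = 0.0463), Irgm1 at -1.09, Clmp at -1.09, Ifi47 at -0.84, Fn1 at -0.80, Hsd17b7 at -0.75, Upk1b at -0.74, Ifi209 at -0.67, Sftpd at -0.42, Sgk1 at -0.38 and Aqp5 at -0.37.

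A single array lay far from the other 4 of its group in 34 of the 414 groups examined, where chance gives about 1 in 20. The genes were named from these same arrays, some of them for a wide spread in CD-1. The count is thus not a fair comparison with chance. Of the CD-1 arrays, replicate 3 stood apart in Slc15a2 (7.84), Trim16 (7.11), Efhd2 (9.49), Micu3 (3.50), Ifi213 (3.52), Fam205a1 (6.69), Gstm6 (3.50) and Akr1c14 (7.78). Replicate 2 stood apart in Procr (6.63), H2-Eb1 (5.51), Serpina1b (6.65) and Ccna2 (3.87), and replicate 4 in Pcdh18 (5.47), Myl1 (9.43), Gabrp (9.03) and Sprr1a (5.64). Replicate 1 stood apart in Hba-a1 (13.65) and replicate 5 in Per1 (6.17). For Hba-a1 the other CD-1 arrays were tied at 13.79, near the top of the scale. Of the WT arrays, replicate 1 stood apart in Sprr1a (8.48) and Ifi203 (5.36), replicate 2 in Kdr (8.98), replicate 4 in Ccr6 (4.54), Emp2 (12.30) and Ttn (3.72), and replicate 5 in Sowahb (5.81) and Fbp1 (4.66).

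Mean levels of gene lists also had such arrays. In CD-1, replicate 4 was high for skeletal muscle (8.66), squamous epithelium (7.19) and thymocyte markers (4.38), and replicate 5 for replication and mitosis genes (5.38). In WT, replicate 1 was high for skeletal muscle (5.89) and squamous epithelium markers (8.22), and replicate 4 stood at 5.59 for cardiac muscle and 5.35 for T and NK cell markers.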

How the results depend on the processing

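On the deposited values 6290 genes were called (537 higher, 5753 lower in CD-1), with 1525 of at least 1.5-fold and 5695 graded, and 4505, 4274 and 4566 of the air calls passed again at 10, 40 and 120 ppm. With every probe set on its own, 5504 passed, 2666 of them lower and 1549 at least 1.5-fold. A background at the 60th or 40th percentile gave 5 or 1 all-or-none genes, the 40th gave 18 on-off genes, and limits of 3 or 1 log2 units gave 14 or 82. Leaving out CD-1 replicate 4 and WT replicate 1 gave 7 all-or-none genes. Without that pair, counts higher and lower were 2 and 7 for P450 genes and 1 and 3 for class I genes. They were 3 and 4 for clock genes, and 2 and 9 for conjugation and ester or aldehyde metabolism. For fibroblast and smooth muscle genes they were 4 and 1. For the natural killer receptor list and immediate early genes they were 2 and 1, and 4 and 2. For erythroid and alveolar type 1 genes they were 4 and 0, and 1 and 0. Leaving out 1 array at a time gave 2986 to 3597 calls (1683 to 2029 higher, 1301 to 1576 lower), 918 to 1012 of 1.5-fold, 2580 to 3146 graded, 3 to 5 all-or-none, 29 to 34 on-off, and 106 to 164 genes wide in CD-1 and 6 to 28 in WT. With the replicate block 2887 genes passed (1585 higher, 1302 lower), and 167 of 176 named genes kept their side of the threshold. After median scaling 162 kept it, and Cyp2f2 (0.093), Hopx (0.10), Sftpd (0.00040) and Sftpa1 (0.15) changed sign. On the deposited values 142 kept it, and Clic5 (-0.0017), Emp2 (-0.018) and Tie1 (-0.019) changed sign. Leaving out 1 array gave -0.30 to 0.056 for Cd8b1, above 0 without CD-1 replicate 2 or 5, and -0.065 to 0.90 for Mb, below 0 without CD-1 replicate 4. Galc did not pass without CD-1 replicate 2, 3 or 5 or any WT array (adjusted p up to 0.0900), and Kdr, H2-Oa, H2-Ab1 and Irgm1 lost their calls in 6 to 9 of the 10 cases (adjusted p up to 0.110). No other named gene changed sign under the alternatives run. The causes were not tested. Depth is limited to signal over background, as no detection calls were used.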

Other observations

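The share of tested genes called at least 2-fold in air was 1.17% of 426 genes on chromosome 15, 1.29% of 310 on chromosome X and 4.21% of 356 on chromosome 14, beside 2.9% over all tested genes. On chromosome Y 0 of 3 tested genes were called so, and differences among chromosomes were not tested. Regulators of G protein signalling Rgs5 (1.44) and its neighbour Rgs4, on chromosome 1, were higher in CD-1. The pantetheinase genes Vnn3 (-1.87) and Vnn1 (-1.59), adjacent on chromosome 10, were lower. The zinc finger genes Zfp708 (-1.27) and Zfp458 (1.68), adjacent on chromosome 13, differed in opposite directions. These genes were chosen after their values were seen.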
